A study of Homo sapiens with 12 samples.

Results

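The enzymes that move nitrogen and carbon between glutamine, glutamate, its oxo acid and proline were followed as a group of 8 genes: GLUL, GLUD1, GOT1, GOT2, GPT2, OAT, ALDH18A1 and PYCR1. They were taken from the deposited table by a fixed list of gene symbols and are 8 of the 15090 genes listed there. The rule uses no measured value, but the list was chosen with earlier results of these data known. RNA was sequenced from MIA PaCa-2, an established line of human pancreatic cancer cells labelled wild type, in 12 libraries that form 4 groups of 3. All cells were kept for 48 h in RPMI 1640 made without glutamine, to which L-glutamine was added back at 2 or 40 mM. Each glutamine level was combined with 0 or 0.5 µM gemcitabine, a deoxycytidine analogue used against pancreatic cancer. The groups are therefore untreated cells at 2 mM, untreated cells at 40 mM, drug-treated cells at 2 mM and drug-treated cells at 40 mM. By its title, the study is about high-dose glutamine, amino acid transport and chemosensitivity. The series describes the 3 libraries of a group as biological replicates, and all come from this 1 line.

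Glutamine loses its amide nitrogen to become glutamate, and GLUL, glutamine synthetase, runs the step back. Glutamate reaches the citric acid cycle as 2-oxoglutarate, either through glutamate dehydrogenase (GLUD1), which releases ammonium, or through transaminases, which pass the nitrogen on to aspartate or alanine. Proline is built from glutamate by ALDH18A1 and PYCR1, and OAT joins ornithine to the same intermediate. Pancreatic cancer cells are known for a route in which aspartate made from glutamine in mitochondria is processed by GOT1 in the cytosol.

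RefSeq promoters (build GRCh38.p14) were matched by symbol to 6 of the 8 genes, and 3 are shown here. The first pair are the members whose window held a searched motif, and the last is GLUD1, a member that fell with the drug and whose window held neither. Each line gives the 250 bases before the annotated start, 5′ to 3′ on the strand of the gene, with the motif match in capitals.
GOT1, chr10:99430625-99430874, minus strand: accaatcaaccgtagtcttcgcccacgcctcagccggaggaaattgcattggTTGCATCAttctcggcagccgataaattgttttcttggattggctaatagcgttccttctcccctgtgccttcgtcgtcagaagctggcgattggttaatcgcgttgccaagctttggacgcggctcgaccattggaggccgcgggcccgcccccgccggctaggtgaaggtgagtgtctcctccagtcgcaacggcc
ALDH18A1, chr10:95656712-95656961, minus strand: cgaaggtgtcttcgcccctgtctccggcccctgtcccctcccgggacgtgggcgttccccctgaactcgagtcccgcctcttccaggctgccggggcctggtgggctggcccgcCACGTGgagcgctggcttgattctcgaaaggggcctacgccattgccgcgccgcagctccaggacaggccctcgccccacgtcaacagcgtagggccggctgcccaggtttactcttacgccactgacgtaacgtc
GLUD1, chr10:87094844-87095093, minus strand: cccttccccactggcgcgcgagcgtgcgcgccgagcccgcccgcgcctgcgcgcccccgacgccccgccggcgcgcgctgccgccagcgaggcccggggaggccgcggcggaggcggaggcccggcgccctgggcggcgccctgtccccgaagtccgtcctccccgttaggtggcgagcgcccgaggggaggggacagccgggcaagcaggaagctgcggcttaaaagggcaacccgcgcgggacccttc
All 3 lie on chromosome 10. The letters TGATGNAA, those of the C/EBP-ATF response element, and CACGTG, the E-box, were searched on both strands in windows of 300 bases that run 50 bases past the start. GOT1 held the first on the strand opposite the gene (TTGCATCA as printed, from base -198), and ALDH18A1 held the second from base -136. Over 35116 promoters of that length, 3.62% held TGATGNAA and 7.26% held CACGTG. A match describes letters in a window, and no binding was measured here. GLUL, GOT2 and OAT held no match. No promoter was read for GPT2 and PYCR1.

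Values are reads per 1000000 (RPM), obtained from the deposited log2(RPM + 1) values. Each library held between 21723094 and 32811746 reads in listed genes. The scaling factors behind the deposited values were 1.03 in all 3 libraries of drug-treated cells at 40 mM and at most 1.002 in the other 9. Differences are log2 fold changes from limma with their standard error (SE), with p-values adjusted by Benjamini-Hochberg over 12789 tested genes and a threshold of 0.05. Of the epithelial markers KRT8, KRT18 and KRT19 were listed, at 196 to 2357 RPM, and KRT7, EPCAM and CDH1 were not, while VIM stood at 2944 to 3488 RPM. Of 5 acinar and endocrine markers only CEL was listed (at most 3.43 RPM), of 3 endothelial markers only CDH5 (at most 0.660 RPM), and of 3 blood markers none. Of 4 fibroblast markers 2 were listed, COL1A1 at most at 1.61 RPM and COL1A2 at 582 to 897 RPM, and DCN and PDGFRB were not. The summed epithelial markers ran from 3033 to 3180 RPM in untreated cells at 2 mM, from 2388 to 2490 at 40 mM, and with the drug from 4134 to 4188 and from 2909 to 2981. The summed fibroblast markers ran from 747 to 769 RPM in untreated cells at 2 mM, from 869 to 898 at 40 mM, and with the drug from 583 to 631 and from 652 to 703. The part of either in the results below was not tested. In bulk RNA, fewer cells that carry a transcript and less of it per cell cannot be told apart.

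Per kilobase of exon, mitochondrial aspartate transaminase GOT2 was the most abundant member at a mean of 166 RPM per kb over 12 libraries, and glutamine synthetase GLUL was the least abundant at 0.320. OAT (110.0 RPM per kb), GLUD1 (93.6), PYCR1 (74.0) and ALDH18A1 (60.1) followed GOT2. The cytosolic aspartate transaminase GOT1 (23.0 RPM per kb) and the mitochondrial alanine transaminase GPT2 (19.4) were lower. The exon lengths come from GENCODE release 29, since no source used here gives the authors' annotation, and these levels are approximate. The group means of GOT2, OAT and ALDH18A1 differed by at most 1.05 times between the highest and the lowest group. For GPT2, GOT1, GLUD1 and PYCR1 that ratio was 1.17, 1.24, 1.28 and 1.35.

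**Figure D1:**
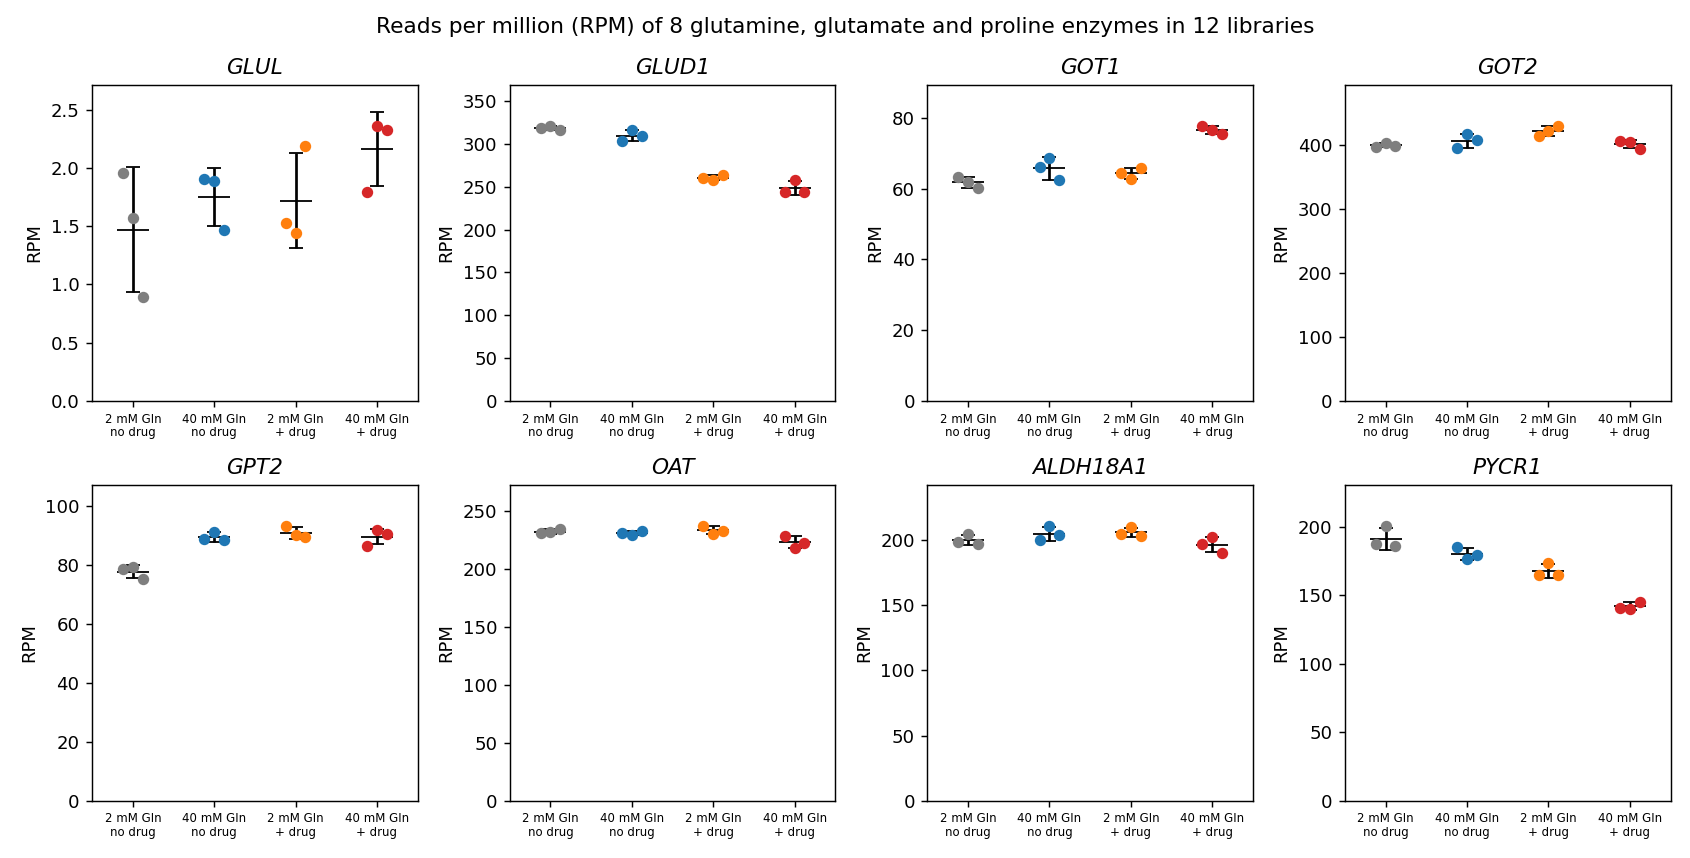
RPM (vertical axis, from 0) of each of the 8 genes in the 12 libraries, by group on the horizontal axis, with points for libraries and bars for the mean and SD of 3. GLUD1 and PYCR1 sit lower in drug-treated cells, GOT1 is highest in drug-treated cells at 40 mM (75.6 to 77.7 RPM) and GPT2 is lowest in untreated cells at 2 mM (75.1 to 79.0 RPM).

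GLUL, the enzyme that makes glutamine from glutamate and ammonium, was barely detected. Its libraries held 1.95, 1.57 and 0.889 RPM in untreated cells at 2 mM, which are 49, 35 and 24 reads. At 40 mM without drug they held 1.90, 1.89 and 1.47 RPM. Drug-treated libraries held 1.53, 1.44 and 2.19 RPM at 2 mM and 1.80, 2.36 and 2.33 RPM at 40 mM. All 4 groups overlap. The mean of 1.78 RPM stands at percentile 22.7 of the listed genes. For the library with 24 reads the exact Poisson interval (95%) is 0.570 to 1.32 RPM, which covers counting error only. At 40 against 2 mM the difference was 0.18 ± 0.17 without the drug (95% interval -0.17 to 0.52, limma adjusted p = 0.520) and 0.22 ± 0.17 with it (-0.12 to 0.57, adjusted p = 0.384). Over the alternatives the first of these ran from -0.01, without replicate 3 of untreated cells at 2 mM, to 0.32, which was its size without replicate 1 of that group and with voom weights. The second ran from 0.09 to 0.34, highest without replicate 3 of drug-treated cells at 2 mM. A change of GLUL between 2 and 40 mM was thus not detectable at this depth. GENCODE 29 names 4 GLUL pseudogenes, none of them listed in the table, and no source used here says how reads shared with them were counted.

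GLUD1, mitochondrial glutamate dehydrogenase, fell with gemcitabine at both glutamine levels. Untreated libraries held 319, 321 and 316 RPM at 2 mM and 304, 316 and 309 RPM at 40 mM. Drug-treated libraries held 260.5, 258 and 264 RPM at 2 mM and 244, 258 and 243 RPM at 40 mM. All 6 drug-treated libraries lie below all 6 untreated ones, and the glutamine levels overlap within each drug state. GLUD1 fell by 0.29 on the log2 scale at 2 mM (SE 0.030, limma adjusted p = 3.06e-09) and by 0.32 at 40 mM (SE 0.030, adjusted p = 4.48e-10) (-18.1% and -19.7%). Between those falls the difference was -0.03 ± 0.043 (95% interval -0.12 to 0.06, adjusted p = 0.817). The glutamine step itself gave -0.04 ± 0.030 without the drug (adjusted p = 0.393) and -0.07 ± 0.030 with it (adjusted p = 0.108). The latter passed without replicate 2 of drug-treated cells at 40 mM (-0.10, adjusted p = 0.0419), the GLUD1 library nearest to the 2 mM values.

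Some of the genes that could share reads with GLUD1 were listed. GLUD2, its near-identical relative, was listed but too low to be tested, at 4 to 18 reads per library. GENCODE 29 names 5 GLUD1 pseudogenes, of which only GLUD1P3 was listed, at 1.03 to 1.94 RPM. SHLD2, which overlaps GLUD1 on the opposite strand in GENCODE 29, held 51.8 to 60.9 RPM, with overlapping ranges in all 4 groups. No source used here says whether the counting used strand or how reads shared between genes were counted. The part of shared reads in the GLUD1 values was not tested.

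GOT1, the cytosolic aspartate transaminase, was highest where high glutamine and the drug were combined. Its untreated libraries held 63.4, 61.9 and 60.2 RPM at 2 mM and 66.3, 68.7 and 62.3 RPM at 40 mM. With the drug it held 64.3, 62.8 and 65.8 RPM at 2 mM and 77.7, 76.5 and 75.6 RPM at 40 mM. The 3 libraries with high glutamine and drug lie above the other 9, which overlap across groups. In drug-treated cells GOT1 rose by 0.25 ± 0.045 from 2 to 40 mM (limma adjusted p = 0.000108), or by 18.8%. At 40 mM it rose by 0.22 ± 0.045 with the drug (adjusted p = 0.000274), and against untreated cells at 2 mM by 0.30 ± 0.045 (adjusted p = 1.28e-06). High glutamine alone gave 0.09 ± 0.045 (adjusted p = 0.188) and the drug alone at 2 mM 0.06 ± 0.045 (adjusted p = 0.362). The excess of the drug response at 40 mM over that at 2 mM was 0.16 ± 0.064 (95% interval 0.03 to 0.29), which did not pass (adjusted p = 0.193). A dependence of the GOT1 drug response on glutamine is therefore not shown.

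GOT2, the mitochondrial partner of GOT1 in the malate-aspartate shuttle, moved little. It held 398, 404 and 399 RPM in untreated cells at 2 mM and 395, 417 and 408 RPM at 40 mM. With the drug it held 415, 422 and 429.8 RPM at 2 mM and 406, 405 and 394 RPM at 40 mM. At 2 mM all drug-treated libraries lie above the untreated ones, by a rise of 0.08 ± 0.029 (limma adjusted p = 0.0368). That call ended under quantile normalization (0.05, adjusted p = 0.139), without a mean-variance trend (adjusted p = 0.119), and when replicate 1 or 3 of untreated cells or replicate 2 or 3 of drug-treated cells at 2 mM was left out (adjusted p = 0.0996, 0.0842, 0.0838 and 0.152). At 40 mM the drug gave -0.02 ± 0.029 (adjusted p = 0.703). The glutamine step gave 0.02 ± 0.029 without the drug (adjusted p = 0.639) and -0.07 ± 0.029 with it (adjusted p = 0.0748, and 0.0492 with voom weights), where every library at 40 mM lies below those at 2 mM.

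GPT2, the mitochondrial alanine transaminase, was lower in untreated cells at 2 mM than in any other group. Those libraries held 78.6, 79.0 and 75.1 RPM. Untreated cells at 40 mM held 88.6, 91.1 and 88.4 RPM, drug-treated cells at 2 mM 93.1, 90.1 and 89.3 RPM, and drug-treated cells at 40 mM 86.5, 91.6 and 90.5 RPM. The last 3 groups overlap, and all 9 of their libraries lie above the first 3. High glutamine alone raised GPT2 by 0.20 ± 0.040 (limma adjusted p = 0.000481), or 15.0%, and the drug alone at 2 mM raised it by 0.22 ± 0.040 (adjusted p = 4.14e-05), or 16.9%. Given together they left it 0.20 ± 0.040 above untreated cells at 2 mM (adjusted p = 0.000112). In drug-treated cells the glutamine step gave -0.02 ± 0.040 (95% interval -0.10 to 0.06, adjusted p = 0.764), and at 40 mM the drug gave 0.00 ± 0.040 (95% interval -0.08 to 0.08, adjusted p = 0.976).

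GPT2 was the only member whose drug response differed between glutamine levels past the threshold. Its response at 40 mM less its response at 2 mM was -0.22 ± 0.057 (95% interval -0.34 to -0.11, limma adjusted p = 0.0305). Over the alternatives this difference ran from -0.24 to -0.19 with adjusted p from 0.0243 to 0.122, and 15 of 23 passed. It did not pass under quantile normalization (-0.19, adjusted p = 0.0705), under scaling to the sum of listed genes (-0.19, adjusted p = 0.0791) or without a mean-variance trend (adjusted p = 0.122). It also did not pass without replicate 3 of untreated cells at 2 mM (adjusted p = 0.0760), replicate 1 or 2 of drug-treated cells at 2 mM (0.0943 and 0.0609), replicate 3 of untreated cells at 40 mM (0.0524) or replicate 1 of drug-treated cells at 40 mM (0.0955). Its rises with high glutamine alone and with the drug alone passed in every alternative run. The cytosolic alanine transaminase GPT held 0.918 to 2.54 RPM, and none of its comparisons passed.

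**Figure D2:**
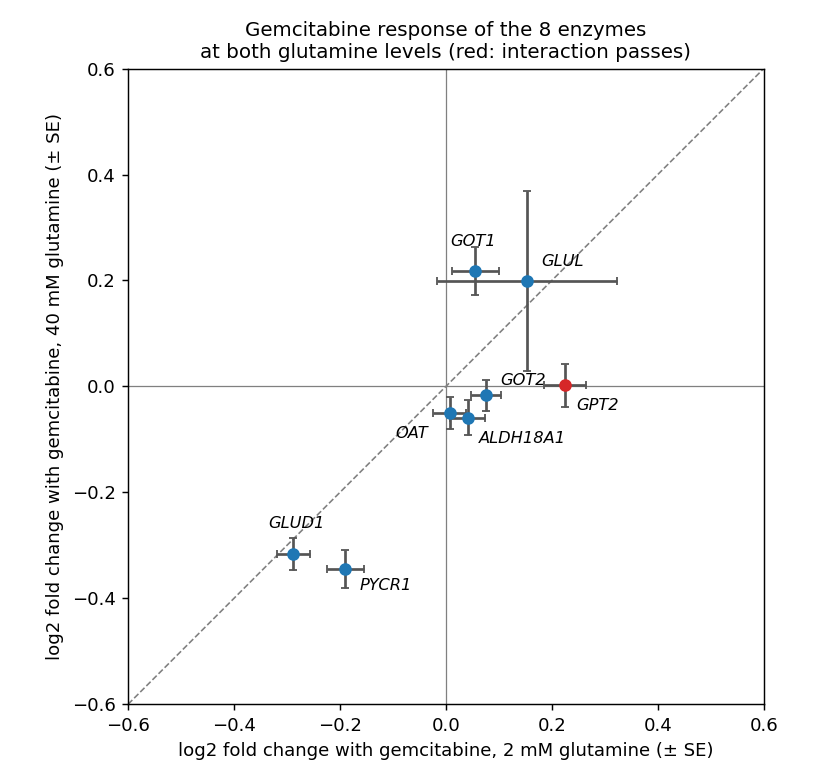
Log2 fold change with gemcitabine at 2 mM glutamine (horizontal axis) against that at 40 mM (vertical axis) for the 8 genes, with bars of 1 SE; the dashed line marks equal responses. GLUD1 lies on the line within its error (-0.29 and -0.32), and GPT2, in red, lies below it (0.22 and 0.00), with the only difference past the threshold.

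Proline is made from glutamate through pyrroline-5-carboxylate, and of the 3 members around it only PYCR1 had comparisons that passed. ALDH18A1, which makes this intermediate from glutamate, held 199, 205 and 197 RPM in untreated cells at 2 mM and 199.9, 211 and 204 RPM at 40 mM. With the drug it held 205, 210.0 and 203 RPM at 2 mM and 197, 202 and 190.3 RPM at 40 mM. Drug-treated libraries at 40 mM lie below those at 2 mM, and all other pairs of groups overlap. None of its comparisons passed. The glutamine step gave 0.03 ± 0.033 without the drug (limma adjusted p = 0.543) and -0.07 ± 0.033 with it (adjusted p = 0.148). The drug gave 0.04 ± 0.033 at 2 mM (adjusted p = 0.359) and -0.06 ± 0.033 at 40 mM (adjusted p = 0.185).

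OAT, ornithine aminotransferase, links ornithine to the same intermediate. It held 231, 232 and 235 RPM in untreated cells at 2 mM, 231, 229 and 233 RPM at 40 mM, 237, 231 and 233 RPM with the drug at 2 mM, and 229, 218 and 223 RPM with the drug at 40 mM. The last group lies below the other 9 libraries. The gap did not pass against drug-treated cells at 2 mM (-0.06 ± 0.030, limma adjusted p = 0.134) or against untreated cells at 40 mM (-0.05 ± 0.030, adjusted p = 0.229). For the glutamine step alone the 95% interval was -0.07 to 0.05, and for the drug at 2 mM -0.06 to 0.07, around -0.01 and 0.01.

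PYCR1, the mitochondrial reductase that completes proline, fell with the drug and was lowest at high glutamine with the drug. Untreated libraries held 187, 201 and 186 RPM at 2 mM and 185, 176 and 179 RPM at 40 mM. Drug-treated libraries held 165, 173 and 165 RPM at 2 mM and 141, 139.7 and 145 RPM at 40 mM. The 4 groups form an order without overlap, from untreated cells at 2 mM down to drug-treated cells at 40 mM. PYCR1 fell with the drug by 0.19 on the log2 scale at 2 mM (SE 0.036, limma adjusted p = 7.76e-05) and by 0.34 at 40 mM (SE 0.036, adjusted p = 2.08e-09) (-12.3% and -21.2%). In drug-treated cells it fell by 0.24 from 2 to 40 mM (SE 0.036, adjusted p = 7.30e-06). High glutamine alone gave -0.08 ± 0.036, which did not pass (adjusted p = 0.1002). Against untreated cells at 2 mM, both together lowered it (-25.7%, or -0.43 ± 0.036 on the log2 scale, adjusted p = 9.30e-12).

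The deeper drug response of PYCR1 at 40 mM, -0.15 ± 0.050 (95% interval -0.26 to -0.05), did not pass (limma adjusted p = 0.102). It passed without replicate 2 of untreated cells at 2 mM (-0.19, adjusted p = 0.0424), the highest PYCR1 library of all. MYADML2, which overlaps PYCR1 on the same strand in GENCODE 29, held at most 0.761 RPM. A pair of antisense genes overlaps it too, and neither was listed. ALDH4A1, which turns the proline intermediate back into glutamate, fell with the drug by 0.21 on the log2 scale at 2 mM (SE 0.043, adjusted p = 0.000245) and by 0.20 at 40 mM (SE 0.043, adjusted p = 0.000348).

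**Figure D3:**
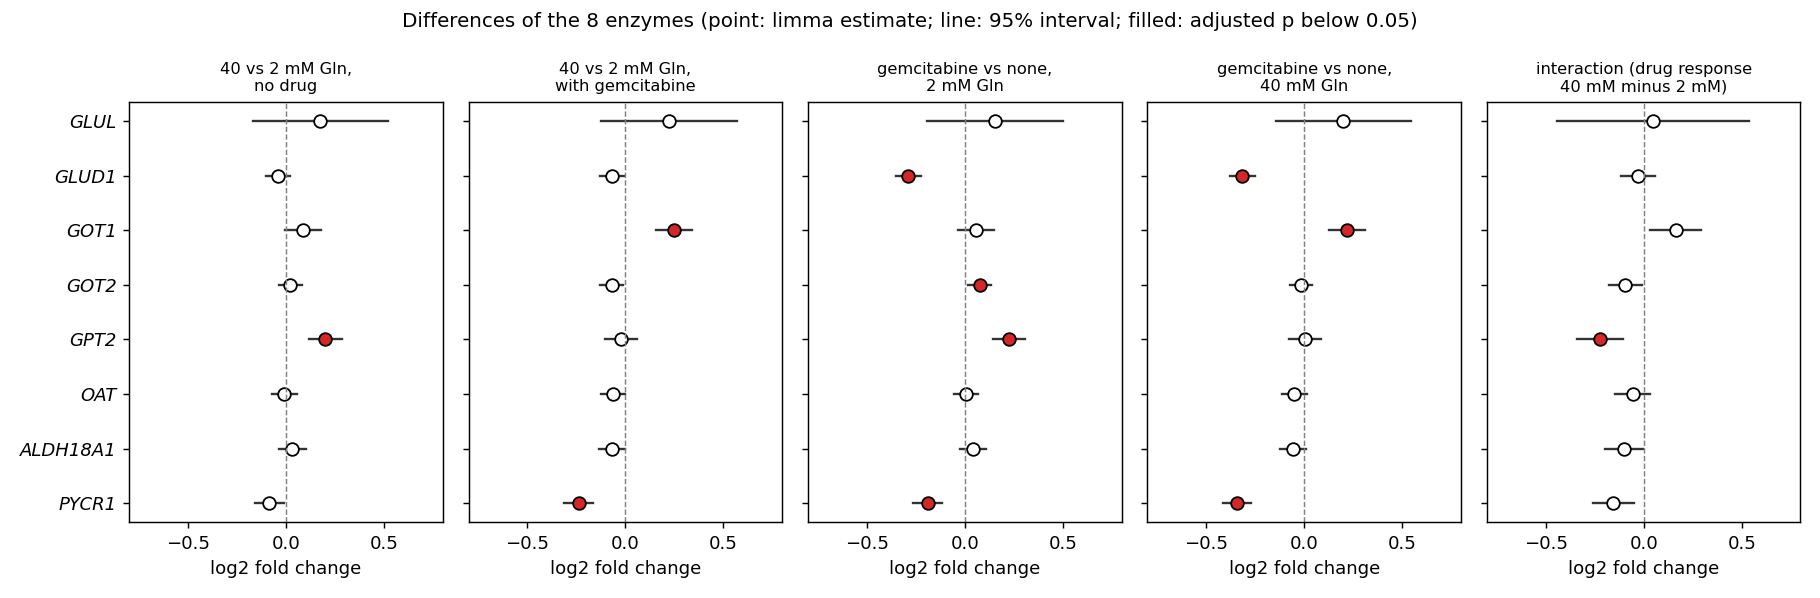
Log2 fold change (horizontal axis) of the 8 genes (vertical axis) in 5 comparisons, with 95% intervals from limma and filled points where the adjusted p is below 0.05. GLUD1 and PYCR1 fall with the drug in both drug panels, GPT2 rises with either agent alone (0.20 and 0.22), and the interval of GLUL is the widest in every panel.

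The number of members called is set beside the share of all tested genes called in the same comparison. For high glutamine without drug 1 of 8 was higher and 0 lower, against 17.5% of tested genes called (8.41% higher, 9.12% lower). In drug-treated cells the glutamine step had 1 higher and 1 lower, against 21.6% (8.62% and 13%). The drug at 2 mM had 2 higher and 2 lower, against 34.6% (17.5% and 17.1%), and at 40 mM 1 higher and 2 lower, against 30.3% (14.1% and 16.2%). High glutamine with drug against neither had 2 higher (GOT1 and GPT2) and 2 lower (GLUD1 and PYCR1), against 40% (18.7% and 21.2%). The interaction, which is the difference between the drug responses at 40 and 2 mM, had 0 higher and 1 lower, against 2.2% (0.727% and 1.47%). Without adjustment, 5 of the 8 interactions had p below 0.05, and 1942 of 12789 over all genes.

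The median difference of the 8 stayed near 0 in each comparison. It was 0.03 for high glutamine without drug and -0.07 with it, 0.05 and -0.03 for the drug at 2 and 40 mM, -0.01 for both against neither and -0.07 for the interaction. Medians over all tested genes lay between -0.01 and 0.00. In absolute size the median member moved by 0.25 for both against neither, where the median tested gene moved by 0.14. For the 5 other comparisons the members' median size was 0.06 to 0.13 and that of all tested genes 0.09 to 0.13.

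The share of calls that were higher depended on scaling for all genes. Scaling to the sum of listed genes gave 61.2% in place of 48.0% for high glutamine without drug, 68.2% in place of 39.9% with it, 62.9% in place of 46.6% for the drug at 40 mM, 65.8% in place of 46.9% for both against neither and 58.9% in place of 33.1% for the interaction. Quantile normalization gave 50.1% for high glutamine with drug and 54.7% for the interaction. No member that passed changed direction under either.

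Ratios between members within a library do not depend on scaling between libraries, and they are given as a description. The ratio of GLUD1 to GPT2, a dehydrogenase against a transaminase that both yield 2-oxoglutarate, was 4.11 ± 0.0856 (SD, n = 3) in untreated cells at 2 mM and 3.47 ± 0.0388 at 40 mM. With the drug it was 2.87 ± 0.0805 at 2 mM and 2.78 ± 0.0775 at 40 mM. Untreated groups do not overlap with each other or with the drug-treated ones. GOT2 to GOT1, the mitochondrial against the cytosolic aspartate transaminase, was 6.48 ± 0.181 and 6.19 ± 0.308 in untreated cells at 2 and 40 mM and 6.57 ± 0.139 with the drug at 2 mM. It was 5.25 ± 0.0445 with the drug at 40 mM, below all other libraries. Along the proline route, PYCR1 to ALDH18A1 was 0.955 ± 0.0220 and 0.881 ± 0.0447 without the drug and 0.813 ± 0.0104 and 0.722 ± 0.0370 with it. OAT to ALDH18A1 stayed between 1.08 and 1.19 in all libraries.

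**Figure D4:**
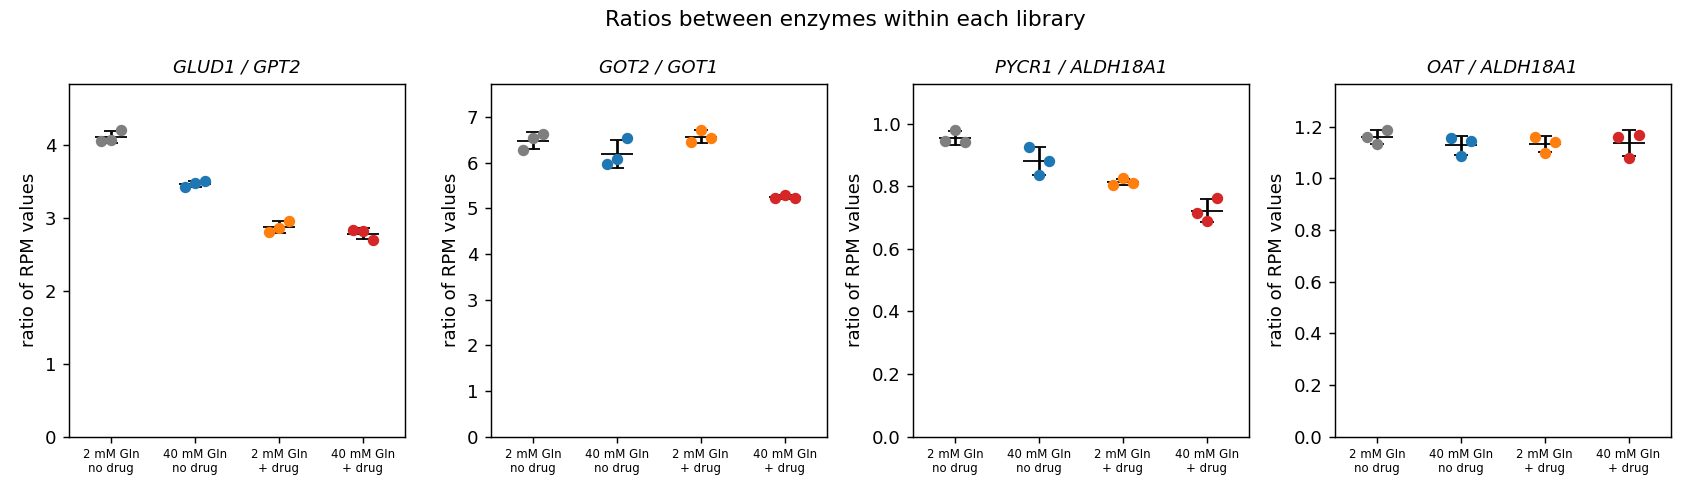
Ratio of RPM values of 2 members within each library (vertical axes, from 0), by group, with the mean and SD of 3. The ratio of GLUD1 to GPT2 is highest in untreated cells at 2 mM (4.06 to 4.21), the ratio of GOT2 to GOT1 is lowest in drug-treated cells at 40 mM (5.21 to 5.30), and the ratio of OAT to ALDH18A1 overlaps in all groups.

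Summed over the 8 genes, RPM was 1484 ± 18.2 (SD, n = 3) in untreated cells at 2 mM and 1490 ± 20.7 at 40 mM, and with the drug 1447 ± 5.72 and 1381 ± 15.6. OAT, ALDH18A1 and PYCR1 together held 624 ± 11.2 and 616 ± 0.446 RPM without the drug and 607 ± 6.46 and 562 ± 4.46 with it. The 3 transaminases GOT1, GOT2 and GPT2 held 539.8 ± 5.18 and 562 ± 13.9 RPM without the drug and 577 ± 6.69 and 568 ± 6.99 with it. These sums describe reads, not enzyme amounts, and abundant genes weigh more in them than scarce ones.

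Across the 12 libraries, the members' log2 values formed 28 pairs with Pearson correlations from -0.89 to 0.87. These are descriptions over libraries that share 4 groups, not independent samples, so no p is given. The lowest was that of GOT1 with PYCR1 and the highest that of GLUD1 with PYCR1. GOT2 with ALDH18A1 reached 0.73 and GOT1 with OAT -0.78.

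Among 6388 more abundant tested genes, those whose profile was most like a member's were named by their correlation over the 12 libraries. GLUD1 was closest to EMP3 (0.989), SEMA3A (0.983) and SEMA3C (0.983). PYCR1 was closest to the ribosomal protein gene RPL6 (0.986), TXN (0.981) and DPYSL2 (0.978). For these members 1% of the genes reached 0.950 and 0.937. GOT1 was closest to the chaperone gene HSP90B1 (0.963), the leucyl-tRNA synthetase gene LARS1 (0.935) and COQ10B (0.927), with 1% of genes above 0.843. GPT2 was closest to the glucose transporter gene SLC2A1 (0.955), DCTN1 (0.938) and GEMIN4 (0.936), with 1% above 0.850. ALDH18A1 was nearest to NEMF (0.923), EIF3A (0.919) and the glutamine transporter gene SLC38A1 (0.855). GOT2 was nearest to FTSJ1 (0.910), XRCC5 (0.891) and SF3B3 (0.881), and OAT to EI24 (0.882), AK4 (0.873) and FADS3 (0.870). GLUL, with few reads, was nearest to TRAPPC6B (0.866), TFG (0.811) and PDE10A (0.797).

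Other genes of these routes were taken from 6 lists by role, 49 symbols of which 39 were listed and 38 tested. Most code for enzymes, and the lists also hold mitochondrial carriers and AZIN1, a regulator of ornithine decarboxylase. High glutamine without drug left 3 of 38 higher and 6 lower, and with drug 1 higher and 7 lower. The drug left 9 higher and 7 lower at 2 mM, and 10 higher and 6 lower at 40 mM. For both against neither 6 were higher and 12 lower, and for the interaction 1 and 1. The shares of all tested genes given above for each comparison apply here too. Medians over the 38 lay between -0.05 and 0.03.

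Among 10 tested enzymes that take the amide nitrogen of glutamine, 1 was higher and 1 lower with high glutamine alone, and 4 were higher and 3 lower with the drug at 2 mM. Over all tested genes these shares were 8.41% and 9.12%, then 17.5% and 17.1%. GFPT2, which makes glucosamine phosphate for glycosylation, fell with glutamine by 0.47 without the drug (SE 0.068, limma adjusted p = 5.15e-06) and by 0.43 with it (SE 0.068, adjusted p = 1.60e-05). It went from 27.3 ± 0.795 to 19.4 ± 1.43 RPM (SD, n = 3) without the drug. With the drug it rose by 0.29 ± 0.068 at 2 mM (adjusted p = 0.000949) and by 0.33 ± 0.068 at 40 mM (adjusted p = 0.000237). CTPS1, which aminates UTP to CTP, rose with the drug by 0.51 ± 0.041 at 2 mM (adjusted p = 9.24e-12) and by 0.26 ± 0.041 at 40 mM (adjusted p = 6.35e-06). CTPS1 levels were 75.8 ± 2.30 and 84.1 ± 4.25 RPM without the drug at 2 and 40 mM and 108 ± 1.69 and 101 ± 2.18 RPM with it. GMPS, the GMP synthetase, rose with the drug at 2 mM by 0.13 ± 0.029 (adjusted p = 0.000655). In drug-treated cells GMPS had -0.12 ± 0.029 from 2 to 40 mM (adjusted p = 0.00318), a call that ended under quantile normalization (adjusted p = 0.207) and scaling to the sum (adjusted p = 0.104). ASNS, asparagine synthetase, was low and fell with the drug at 2 mM from 3.66 ± 0.111 to 1.92 ± 0.208 RPM (-0.68 ± 0.15, adjusted p = 0.000466). The size of this ASNS fall ran from -0.94 to -0.32 over the alternatives. With the drug at 40 mM ASNS did not pass (-0.18 ± 0.15, adjusted p = 0.395). GFPT1, the paralogue of GFPT2, rose with glutamine in drug-treated cells by 0.16 ± 0.041 (adjusted p = 0.00435), where GFPT2 fell. High glutamine alone gave CTPS1 0.15 ± 0.041 (adjusted p = 0.0123), which ended without replicate 3 of untreated cells at 2 or at 40 mM (adjusted p = 0.0581 and 0.101) and without a trend (adjusted p = 0.0538). At 40 mM the drug gave GFPT1 0.11 ± 0.041 (adjusted p = 0.0411), which ended when replicate 2 or 3 of untreated cells or replicate 1 or 3 of drug-treated cells at 40 mM was left out (adjusted p from 0.103 to 0.158), without a trend and with the compared groups alone.

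Among the genes for ornithine and arginine enzymes, AZIN1 included, 3 of 5 fell with high glutamine alone, against 9.12% of all tested genes. In drug-treated cells the glutamine step left 0 higher and 1 lower, against 8.62% and 13%. The drug at 2 mM left 0 higher and 1 lower, against 17.5% and 17.1%. At 40 mM the drug left 2 higher and 0 lower, against 14.1% and 16.2%. ASS1, argininosuccinate synthetase, went from 63.8 ± 1.52 to 51.5 ± 0.819 RPM (-0.30 ± 0.048, limma adjusted p = 2.08e-05). ODC1, which turns ornithine into putrescine, went from 252 ± 21.5 to 214 ± 7.54 RPM (-0.24 ± 0.041, adjusted p = 7.87e-05), and in drug-treated cells from 268 ± 10.03 to 231 ± 3.99 RPM (-0.21 ± 0.041, adjusted p = 0.000266). AZIN1, which relieves the inhibition of ornithine decarboxylase, fell by 0.12 (SE 0.036, adjusted p = 0.0136), a call that ended without replicate 2 of untreated cells at 2 mM (adjusted p = 0.0831), without replicate 3 of those at 40 mM (0.0627) and without a trend (0.0635). ARG2, arginase, had 0.66 ± 0.19 with the drug at 40 mM (adjusted p = 0.00640) on 11 to 67 reads per library, and 0.36 without replicate 2 of untreated cells at 40 mM (adjusted p = 0.124). ODC1 had 0.12 ± 0.041 with the drug at 40 mM (adjusted p = 0.0295), which ended without replicate 1 or 3 of untreated cells or replicate 1 or 2 of drug-treated cells at 40 mM (adjusted p from 0.0581 to 0.111), with robust moderation and without a trend. ASS1 fell with the drug at 2 mM by 0.20 (SE 0.048, adjusted p = 0.00110). It did not pass for the glutamine step in drug-treated cells (-0.10 ± 0.048, adjusted p = 0.136). Nor did it pass for the drug at 40 mM (-0.00017 ± 0.048, adjusted p = 0.997).

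Of 8 other transaminases tested, 1 was higher and 0 lower with high glutamine alone, and 0 were higher and 3 lower with the drug at 40 mM. Over all tested genes these shares were 8.41% and 9.12%, then 14.1% and 16.2%. BCAT1, the cytosolic branched-chain enzyme, at 0.627 to 3.31 RPM, rose with high glutamine alone by 0.66 ± 0.17 (limma adjusted p = 0.00558). With the drug at 2 mM it had 0.55 ± 0.17 (adjusted p = 0.0107), a call that ended without replicate 2 of untreated cells or replicate 3 of drug-treated cells at 2 mM (adjusted p = 0.0525 and 0.0641). BCAT2, the mitochondrial one, went in drug-treated cells from 85.1 ± 2.69 to 72.4 ± 4.69 RPM at 40 mM (-0.23 ± 0.046, adjusted p = 0.000341), and at 40 mM it fell with the drug by 0.25 (SE 0.046, adjusted p = 8.46e-05). ABAT, which passes the amino group of GABA on, fell with the drug from 4.11 ± 0.615 to 2.28 ± 0.243 RPM at 2 mM and from 3.89 ± 1.05 to 1.94 ± 0.269 RPM at 40 mM (-0.64 and -0.72, SE 0.15, adjusted p = 0.00128 and 0.000382). PSAT1, the phosphoserine transaminase that also uses glutamate, fell with the drug by 0.10 at 2 mM and by 0.11 at 40 mM (SE 0.031, adjusted p = 0.0107 and 0.00799). The call at 2 mM ended without replicate 2 of untreated cells or replicate 3 of drug-treated cells (adjusted p = 0.0584 and 0.0639), and that at 40 mM under scaling to the sum of listed genes (adjusted p = 0.102).

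The malate-aspartate shuttle, in which GOT1 and GOT2 work with malate dehydrogenases and carriers, had MDH1 and SLC25A11 rising with the drug at both glutamine levels. Of 8 tested genes in this list, the drug left 3 higher and 0 lower at 2 mM, and 2 higher and 1 lower at 40 mM. Over all tested genes these shares were 17.5% and 17.1%, then 14.1% and 16.2%. MDH1, the cytosolic dehydrogenase, rose by 0.13 at each glutamine level (SE 0.032, limma adjusted p = 0.00137 and 0.00265). SLC25A11, the oxoglutarate carrier, rose by 0.16 and 0.18 (SE 0.046, adjusted p = 0.00527 and 0.00276). SLC25A13, an aspartate-glutamate carrier, rose with high glutamine alone by 0.23 ± 0.050 (adjusted p = 0.00118) and with the drug at 2 mM by 0.25 ± 0.050 (adjusted p = 0.000157). It did not pass with the drug at 40 mM (0.09 ± 0.050, adjusted p = 0.170) or with glutamine in drug-treated cells (0.07 ± 0.050, adjusted p = 0.346). The SLC25A13 interaction did not pass either (-0.16 ± 0.071, adjusted p = 0.264). MDH2, the mitochondrial dehydrogenase, fell in drug-treated cells at 40 mM against 2 mM by 0.16 (SE 0.030, adjusted p = 0.000155), a call that ended under quantile normalization (-0.07, adjusted p = 0.0719). With high glutamine alone MDH2 had -0.10 ± 0.030 (adjusted p = 0.0128), which ended without replicate 2 of untreated cells at 2 mM or replicate 3 at 40 mM (adjusted p = 0.134 and 0.0715), under quantile normalization and without a trend. The glutamate carrier SLC25A22 fell in drug-treated cells at 40 mM against 2 mM by 0.26 (SE 0.061, adjusted p = 0.00245), which ended without replicate 2 of drug-treated cells at 2 mM (-0.18, adjusted p = 0.0539). With the drug at 40 mM it had -0.19 ± 0.061 (adjusted p = 0.0156), which ended without replicate 3 of untreated or of drug-treated cells at 40 mM (adjusted p = 0.132 and 0.113), under scaling to the sum and without a trend. With high glutamine alone, 8.41% of all tested genes were higher and 9.12% lower. Of 5 other enzymes that use glutamate, 0 were higher and 1 lower with high glutamine alone, and 1 was higher and 1 lower with the drug at 40 mM. These were GCLM of glutathione synthesis (-0.12 ± 0.030, adjusted p = 0.00528, then 0.11 ± 0.030, adjusted p = 0.00624) and FPGS, which adds glutamate to folates (-0.13 ± 0.040, adjusted p = 0.0103). The first call of GCLM ended under quantile normalization (-0.07, adjusted p = 0.0776) and without a trend (0.0520), and that of FPGS without replicate 2 of drug-treated cells at 40 mM (-0.12, adjusted p = 0.0567) and under scaling to the sum (-0.09, adjusted p = 0.0777).

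With high glutamine and drug against neither, 6 of the 38 related genes were higher and 12 lower, against 18.7% and 21.2% of all tested genes. Among the higher were CTPS1 (0.41 ± 0.041, limma adjusted p = 8.51e-10) and the carriers SLC25A13 (0.32 ± 0.050, adjusted p = 3.01e-06) and SLC25A11 (0.24 ± 0.046, adjusted p = 6.86e-05). Among the lower were ASS1 (-0.30 ± 0.048), BCAT2 (-0.27 ± 0.046), CTPS2 (-0.20 ± 0.045), MDH2 (-0.18 ± 0.030), PSAT1 (-0.16 ± 0.031) and ABAT (-0.80 ± 0.15), with adjusted p from 3.87e-06 to 0.000531. These 9 calls held in every alternative that tested the gene. Of the transaminases BCAT1, outside the 3 of smallest p, was also higher (0.85 ± 0.17, limma adjusted p = 0.000118). It rests on 14 to 25 reads per library in untreated cells at 2 mM. Drug-treated libraries at 40 mM held 45 to 80 reads of it (2.34 ± 0.849 RPM, SD, n = 3). How this BCAT1 call fared in the alternatives is not given here. ASNS (-0.44 ± 0.15, adjusted p = 0.0167) lost its call without replicate 3 of drug-treated cells at 40 mM (adjusted p = 0.0501). ALDH4A1 (-0.13 ± 0.043), ODC1 (-0.12 ± 0.041) and FPGS (-0.12 ± 0.040) passed here with adjusted p from 0.0150 to 0.0180. Each of these calls ended under scaling to the sum of listed genes (-0.07, -0.06 and -0.06, adjusted p = 0.206, 0.255 and 0.243) and without single libraries. That of ODC1 also ended under quantile normalization (-0.07, adjusted p = 0.133) and without a trend (adjusted p = 0.137). For ALDH4A1 it ended without replicate 3 of untreated cells at 2 mM or replicate 1 of drug-treated cells at 40 mM (-0.12 and -0.11). For ODC1 it ended without replicate 2 of the former (-0.06) or 3 of the latter (-0.11), and for FPGS without replicate 3 of the former or 2 of the latter (both -0.10).

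**Figure D5:**
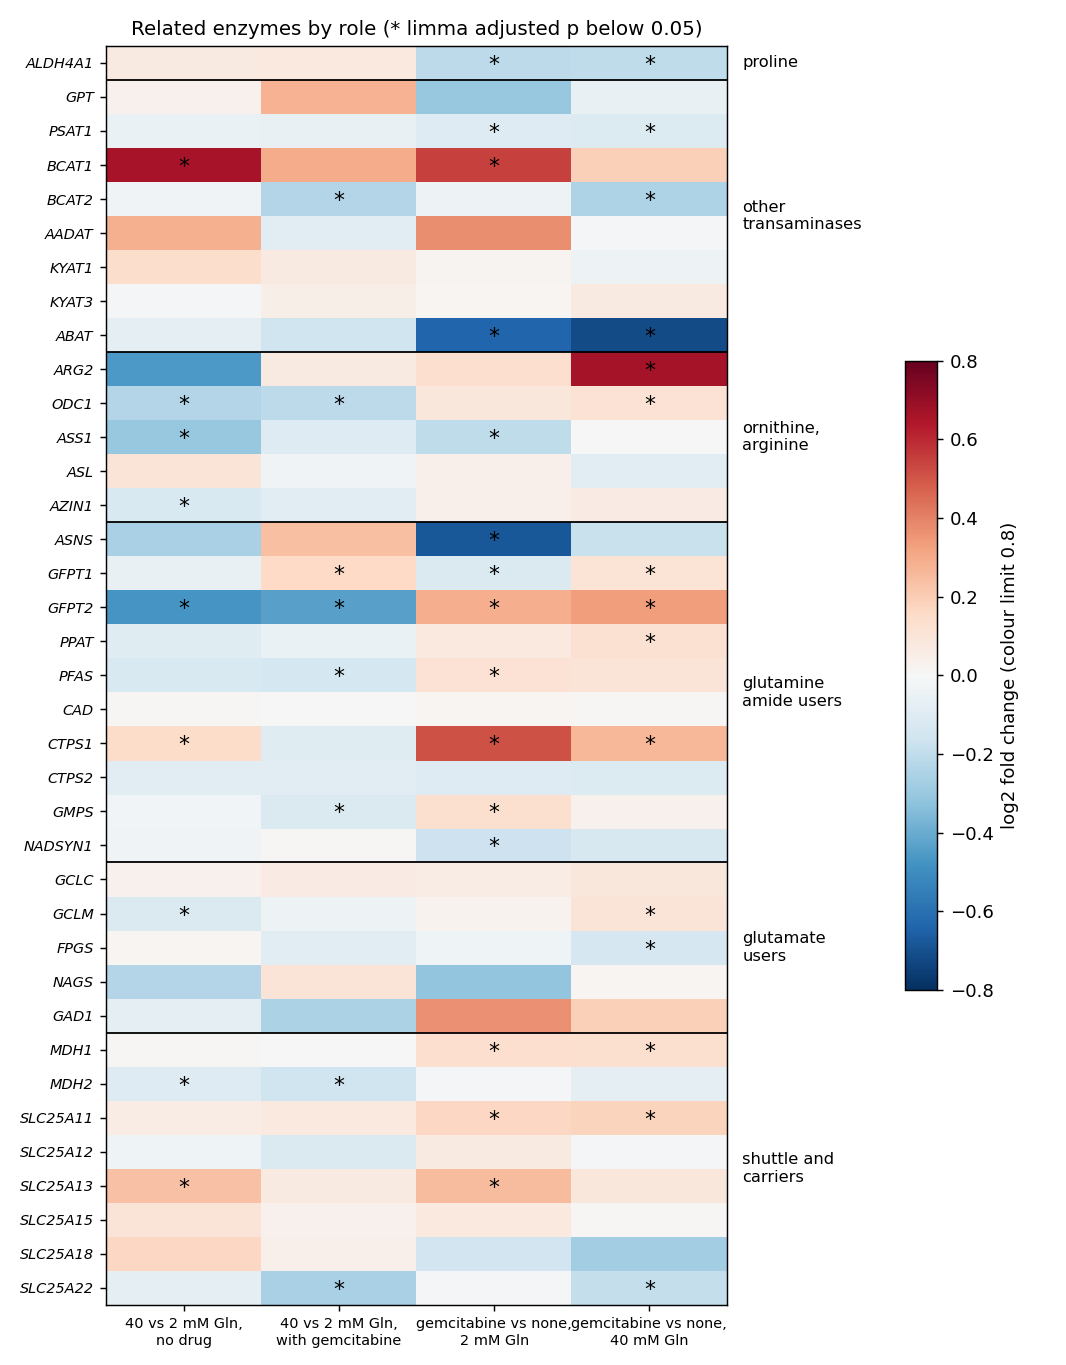
Log2 fold change, as colour, of related genes (rows, grouped by role) in 4 comparisons (columns), with a star where the limma adjusted p is below 0.05. GFPT2 is lower with glutamine (-0.47 and -0.43) and higher with the drug (0.29 and 0.33), and CTPS1 is higher with the drug (0.51 and 0.26).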

How the data were processed

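RNA-seq of 12 MIA PaCa-2 libraries was used as the authors deposited it, in 1 table of 15090 gene symbols. The deposited log2 values are log2(RPM + 1), a unit worked out from the values: reads per 1000000 (RPM) are whole multiples of 1 read for 100% of values below 10000 reads, within 0.05 read. Per the file headers, columns carry the library names of the sample titles. No source used here gives the aligner, build, annotation, counting program, strand setting or scaling method.

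The 12789 genes with at least 1 RPM in at least 3 of 12 libraries were tested and 2301 were not. Limma 3.58.1 (R 4.3.3) fitted 4 group means to the log2 values of all libraries, with moderation toward a mean-variance trend, two-sided tests and Benjamini-Hochberg adjustment over the tested genes. Comparisons that share a group share its libraries. Fold changes on the log2(RPM + 1) scale understate the change of low genes such as GLUL, ASNS, BCAT1, ABAT and ARG2. The plan had a count model for raw counts; with log values deposited, voom weights on recovered reads were used as an alternative. Libraries of a group differed by more than sampling noise (chi-square over degrees of freedom 2.42 to 5.92). The procedure was tested on simulated data.

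The 8 members, the 6 role lists and the marker lists were chosen with earlier results of these data known. All members are described, and from each role list up to 3 genes per comparison with the smallest p past the threshold. Like genes were the 3 of highest correlation among tested genes at or above the median level. Not every enzyme of these routes is reported here, though all listed ones stay in the fits and counts. Alternatives were the pseudocount (0.1 and 5), the filter (none, or 10 RPM), 3 scalings, voom weights, robust moderation, no trend, the compared groups alone, the replicate block and each library left out.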

Additional observations from a re-analysis of the deposited data

Results flagged for a closer look

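By the limma test of the interaction, the drug response differed between glutamine levels for 1 of the 8 members and 2 of the 38 related genes, and for 281 of all tested genes (93 higher, 188 lower). GPT2, the mitochondrial alanine transaminase, had -0.222535 on the log2 scale, the response at 40 mM (0.00) less that at 2 mM (0.22). CTPS1, the CTP synthase, rose at both levels and had -0.243974 (0.26 less 0.51, adjusted p = 0.0189). GFPT1, of the hexosamine route, had 0.223789 (adjusted p = 0.0343), with -0.11 ± 0.041 at 2 mM and 0.11 ± 0.041 at 40 mM. The CTPS1 difference passed in 17 of 23 alternatives. It ended under scaling to the sum of listed genes (-0.21, adjusted p = 0.0570), without a trend (adjusted p = 0.130), and without replicate 1 or 2 of drug-treated cells at 2 mM, replicate 3 of untreated cells or replicate 1 of drug-treated cells at 40 mM (adjusted p from 0.0508 to 0.0839). The GFPT1 difference lay between 0.20 and 0.26 and passed in 13 of 23. It ended without a trend (adjusted p = 0.123) and without 9 single libraries (adjusted p from 0.0536 to 0.0847). These were replicates 1 and 2 of untreated cells at 2 mM, all 3 of drug-treated cells at 2 mM, 2 and 3 of untreated cells at 40 mM, and 1 and 3 of drug-treated cells at 40 mM.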

How the results depend on the processing

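Of 48 results for the 8 members (8 genes in 6 comparisons), 15 passed the threshold and 13 of these passed in every alternative run, 24 settings in all. The exceptions were the rise of GOT2 with the drug at 2 mM, which passed in 18 of 24, and the interaction of GPT2, in 15 of 23. No called value changed its direction. GLUL was left out by the filter of 10 RPM and has no value there. The number of members called for the interaction was 0 under quantile normalization, under scaling to the sum of listed genes and without a mean-variance trend, against 1, and with each library left out it ranged from 0 to 2. With unadjusted p below 0.05 there were 3 under quantile normalization, 3 under scaling to the sum and 3 without a trend, against 5. Over all genes, the interaction in limma called 281 genes, 0 without a trend (1700 at unadjusted p below 0.05, lowest adjusted p = 0.0510), and from 155 to 366 with each library left out, lowest without replicate 1 of drug-treated cells at 2 mM. The cause was not tested. GLUL for both against neither, 0.38 ± 0.17 (adjusted p = 0.0773), passed without replicate 1 of untreated cells at 2 mM (0.52, adjusted p = 0.0282) and under scaling to the sum (0.42, adjusted p = 0.0478). GOT2 for that comparison passed under quantile normalization (0.08, adjusted p = 0.0277) and under scaling to the sum (0.07, adjusted p = 0.0475), against 0.01. The replicate block gave 306 genes and 1 member for the interaction. Same-numbered libraries showed no strong shared deviation over the tested genes: 18 correlations lay between -0.077 and 0.048. The sample titles do not say whether same-numbered libraries were run together, so the block is given only as a setting. Depth limits GLUL alone among the members, with 24 to 71 reads. The other 7 had at least 1352 reads in every library.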
